A study of Homo sapiens with 24 samples.

Results

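ELFN2, MTURN, FAT1, LIPG, PRSS56, CNN2, MARVELD1, ZBTB7C, PEAR1 and CREB5 are 10 human genes whose RNA moved with one sign under several toxicants in neurons derived from LUHMES cells. They were chosen from the comparisons of each toxicant with the vehicle in these libraries, so those comparisons are given here as levels, differences and counts of calls, with no p-value for any of the 10 genes, and support nothing. The 10 names covered 11 of the 58051 genes in the count table, because ELFN2 names a pair of entries, and 10 of the 11 passed the filter on low counts. Values are in CPM, the reads of a gene per megaread of a library's scaled total, and a log2 difference is a toxicant minus the vehicle.

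LUHMES cells are precursors from human midbrain, kept dividing by an oncogene that tetracycline shuts off, after which they become neurons of dopaminergic type. All cultures came from this 1 line, were differentiated with tetracycline, cAMP and GDNF, and were treated for 6 h, with 3 libraries in each of 8 groups. The vehicle group received 1% DMSO, and every toxicant culture received its compound in DMSO. The toxicants were MS275 (entinostat, a histone deacetylase inhibitor) at 5 µM, paraquat at 5 µM, MPP (1-methyl-4-phenylpyridinium, a complex I inhibitor taken up by the dopamine transporter) at 5 µM and ziram (a zinc dithiocarbamate) at 2 µM. Rotenone (a complex I inhibitor) and 6-HD (hydroxydopamine) were each given at 1 µM, and methylmercury chloride at 0.5 µM. Each toxicant was given at 1 dose, and the doses differ between most toxicants.

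Library totals ran from 9.69 megareads (rotenone) to 46.9 megareads (ziram). Of 8 pan-neuronal marker genes, all 8 had a mean of at least 1 CPM in each group. Of 8 markers of dopaminergic neurons, 5 reached that mean in DMSO, and SLC18A2, the vesicular monoamine transporter, was at 0.320 CPM there. The summed level of 6 endothelial and mural markers ran from 42.8 to 47.8 CPM over the DMSO libraries, from 99.7 to 104.6 CPM over MS275 and from 71.5 to 78.3 CPM over MPP. Most of it was PDGFRB, at 43.0 CPM in DMSO and 86.1 CPM in MS275. In the same groups CDH5 stood at 1.99 and 12.1 CPM, VWF at 0.260 and 2.79 CPM, PECAM1 at 0.129 and 0.829 CPM, KDR at 0.0601 and 0.390 CPM, and ACTA2 at 0.311 and 0.313 CPM. The summed level of 4 fibroblast markers ran from 3.55 to 3.98 CPM in DMSO, from 21.7 to 24.4 CPM in MS275, from 4.32 to 6.13 CPM in MPP and from 5.14 to 6.48 CPM in rotenone. The dopaminergic sum ran from 638 to 759 CPM in DMSO, from 1031 to 1243 CPM in MS275 and from 879 to 1226 CPM in rotenone. Most of it was SLC6A3, at 636 CPM in DMSO and 1010 CPM in MS275. PITX3 was lower in MS275, at 0.633 CPM against 1.07 CPM in DMSO. TH, SLC18A2, DDC, NR4A2, LMX1B and ALDH1A1 had higher means in MS275. The sum of 7 astrocyte and oligodendrocyte markers ran from 127 to 141 CPM in DMSO and from 149 to 177 CPM in MS275, with SOX10 at 0 reads in every library. All 5 markers of cycling cells had a mean of at least 1 CPM in each group. Their sum ran from 243 to 287 CPM in DMSO, from 220 to 266 CPM in paraquat and from 295 to 435 CPM in methylmercury. TOP2A made up the largest part, at 141 CPM in DMSO. The part of these marker levels in the results on the 10 genes, of which CNN2, PEAR1 and LIPG are known from vascular or contractile cells, was not tested. Differences between bulk cultures can come from more RNA per cell or from more cells of a type, and these cannot be told apart.

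As background, the 10 genes work in different places of the cell. ELFN2 is a postsynaptic adhesion protein with leucine-rich repeats that binds group III metabotropic glutamate receptors across the synapse. FAT1 is a giant atypical cadherin, PEAR1 a transmembrane receptor with EGF-like repeats first described in platelets, and MARVELD1 a small protein with a MARVEL membrane domain. LIPG is the secreted endothelial lipase, and PRSS56 is a secreted serine protease known from eye growth. CNN2 is a calponin that binds actin, MTURN is a small protein linked to neuronal progenitor differentiation, ZBTB7C is a zinc finger transcription factor of the BTB family, and CREB5 is a basic leucine zipper factor that can bind cAMP response elements.

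Measured per length of exon, the 10 genes covered a wide range in DMSO. MTURN had the highest level at 24.0 RPKM (CPM per kilobase of exon), followed by FAT1 at 5.76 RPKM, MARVELD1 at 3.40 RPKM, CREB5 at 1.70 RPKM and PRSS56 at 1.57 RPKM. CNN2 stood at 1.06 RPKM, ZBTB7C at 0.880 RPKM, LIPG at 0.582 RPKM, PEAR1 at 0.206 RPKM and ELFN2 at 0.128 RPKM. The pair with the lowest level per length, ELFN2 and PEAR1, had the widest ranges of group means, with the highest group 17.5-fold above the lowest for ELFN2 and 10.5-fold for PEAR1. MTURN, the gene with the highest level, had the narrowest range at 1.49-fold.

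**Figure D1:**
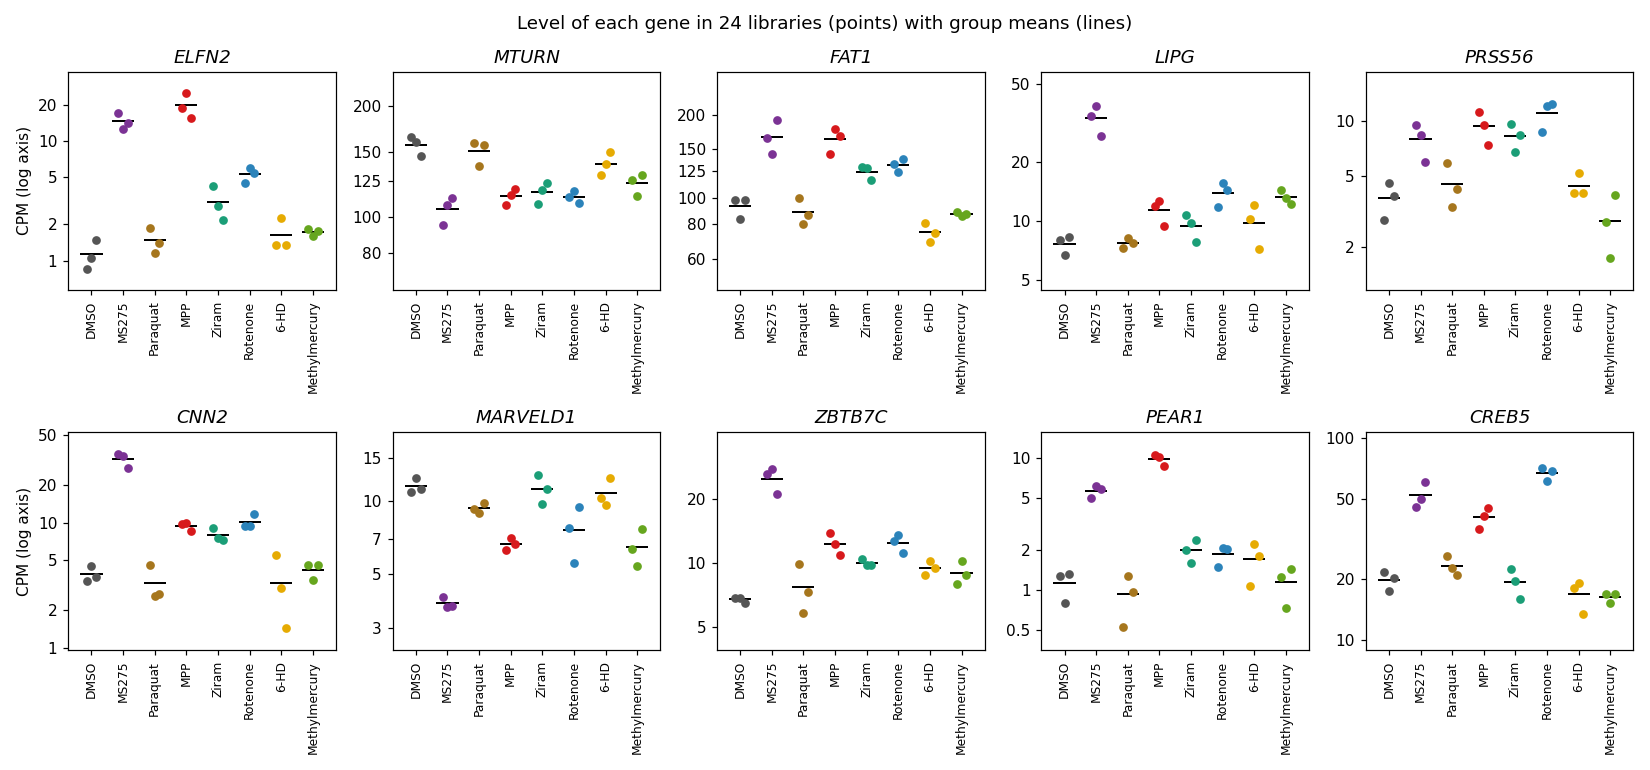
Level of each of the 10 genes in CPM (log axis) in the 24 libraries, by group; each point is 1 library and each line the mean of 3 libraries. ELFN2 and PEAR1 stood highest in MPP, CREB5 and PRSS56 in rotenone, CNN2, LIPG, ZBTB7C and FAT1 in MS275, and MARVELD1 and MTURN in DMSO.

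By the choice of the genes, calls against DMSO were many, and nothing is read from their number. A call here is an adjusted p under 0.05 in the edgeR quasi-likelihood test over 18852 genes. MS275 called 10 of the 10 genes, where 43.2% of all genes tested were called, and MPP called 10, where 10.8% were called. Rotenone called 9, all but PEAR1, where 5.52% of all genes were called. Ziram called 5 (ELFN2, CNN2, PRSS56, FAT1 and MTURN), where 0.53% were called, and methylmercury called 2 (LIPG and MARVELD1), where 0.286% were called. Paraquat and 6-HD called 0 of the 10 by edgeR, where 0% and 0.0106% of all genes were called. At an unadjusted p under 0.05, paraquat had 0 and 6-HD 3 of the 10, and DESeq2 and limma-voom called 0 in both. The libraries of the toxicant and of DMSO did not overlap for 10 of the 10 genes in MS275, MPP and rotenone, where this held for 55.6%, 36.3% and 20.9% of all genes tested. They did not overlap for 7 in ziram (21.2% of all genes), 6 in methylmercury (19.9%), 2 in 6-HD (13%) and 1 in paraquat (8.57%). In MS275, MPP and rotenone 8 of the 10 genes stood above DMSO, and MTURN and MARVELD1 stood below DMSO.

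Leaving out a single library lost some or all of the ziram and methylmercury calls in several cases, while the differences stayed of like size. The ziram count was 0 without DMSO replicate 1, without DMSO replicate 2 or without ziram replicate 1, and 2 without DMSO replicate 3, ziram replicate 2 or ziram replicate 3. The methylmercury count was 0 without any 1 of the 3 DMSO libraries and without methylmercury replicate 1 or 2. The number of toxicants calling a gene in one direction was 4 for ELFN2, MTURN, FAT1, LIPG, PRSS56, CNN2 and MARVELD1. It was 3 for ZBTB7C and CREB5 and 2 for PEAR1. Among all genes tested 8 were called in one direction by 4 toxicants, the other one being the metallothionein MT2A, and 234 genes by 3 toxicants.

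**Figure D2:**
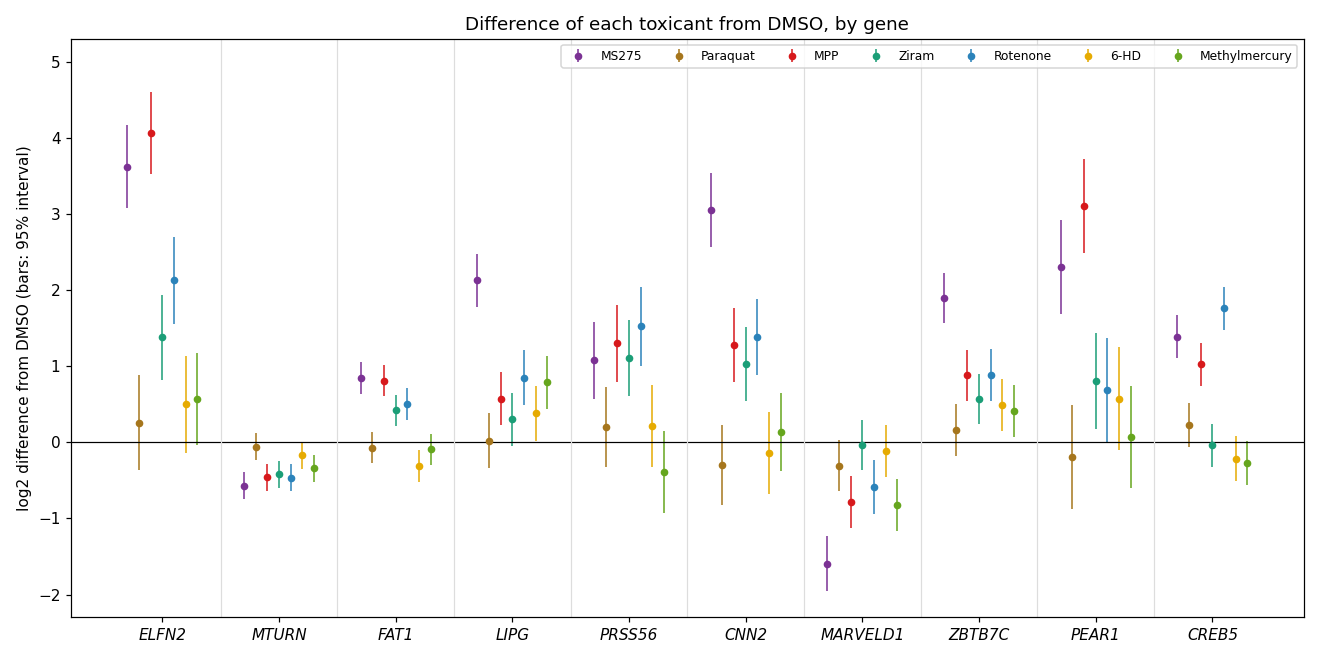
Log2 difference of each toxicant from DMSO for the 10 genes, with bars for the 95% interval of the edgeR fit. The ELFN2 differences spread from 0.26 in paraquat to 4.06 in MPP, and the MTURN differences stayed between -0.57 and -0.06.

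ELFN2, the synaptic adhesion protein, lies on the minus strand at chr22:37367960-37427470 (GRCh38, GENCODE 29). In DMSO its level was 0.854, 1.05 and 1.48 CPM in the 3 libraries. In MPP it was 18.9, 25.0 and 15.3 CPM, and in MS275 17.1, 12.5 and 14.05 CPM. Every MPP and MS275 library stood far above every DMSO library, and the MPP and MS275 libraries overlapped each other. Rotenone gave 4.45, 5.88 and 5.41 CPM, and ziram 4.21, 2.83 and 2.19 CPM. These groups formed lower steps that overlapped neither each other nor DMSO. Methylmercury gave 1.84, 1.61 and 1.76 CPM, 6-HD 1.35, 2.25 and 1.34 CPM, and paraquat 1.85, 1.16 and 1.41 CPM. These 3 groups overlapped each other, methylmercury lay just above the highest DMSO library, and DMSO was the lowest group. The log2 difference from DMSO was 4.06 (SE 0.27) in MPP, 3.62 (SE 0.27) in MS275, 2.13 (SE 0.28) in rotenone and 1.38 (SE 0.27) in ziram. The DMSO level rested on 88 reads over 3 libraries, of which DMSO replicate 3 held 50. Without that library the difference was 3.91 in MS275 and 2.41 in rotenone.

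The 250 bases before the ELFN2 start, at chr22:37427480-37427729 on the minus strand (RefSeq, GRCh38.p14), are shown because ELFN2 had the widest range. Capitals mark matches on either strand to a CRE core (TGACG), a GC box (GGGCGG) or TGCNCNC. In TGCNCNC each N is any base, which makes it looser than the core of a metal response element. A match to it need not be such an element.
ELFN2: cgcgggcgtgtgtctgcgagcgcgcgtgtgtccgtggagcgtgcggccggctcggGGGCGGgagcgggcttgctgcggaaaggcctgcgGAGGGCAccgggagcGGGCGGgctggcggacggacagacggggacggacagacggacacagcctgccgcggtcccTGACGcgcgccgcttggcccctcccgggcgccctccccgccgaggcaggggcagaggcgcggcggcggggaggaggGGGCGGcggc
This window, with the 50 bases after the start, had a GC content of 78.67%, where the median of 35116 promoters was 58.67%. It held 1 CRE core 86 bases before the start and 3 GC boxes.

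The other entry named ELFN2 is a sense-overlapping transcript (ENSG00000243902) at chr22:37339583-37427445, which did not pass the filter. It had 7, 2 and 0 reads in MS275, 8, 1 and 5 in MPP, 3, 2 and 0 in ziram, and 0, 0 and 4 in rotenone. It had 0 reads in every library of DMSO, paraquat, 6-HD and methylmercury, where a count of 0 allows up to 3 reads. The groups with any read were the 4 groups with the highest level of the coding entry, and no difference was tested at these counts. The entries share 148 exon bases, and the antisense gene Z94160.2 shares 910 exon bases with the coding entry and had 0 reads in each library. Whether the counting used strand is not given in the sources used here, so reads from shared bases cannot be told apart.

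PEAR1, the EGF-repeat receptor, lies on the plus strand at chr1:156893698-156916434. Its DMSO libraries had 1.28, 0.808 and 1.33 CPM, its MPP libraries 10.5, 10.1 and 8.71 CPM and its MS275 libraries 4.98, 6.10 and 5.82 CPM. MPP stood above MS275 with no overlap, and both stood above all other groups. Ziram gave 2.03, 1.61 and 2.38 CPM, rotenone 1.497, 2.10 and 2.05 CPM, and 6-HD 1.08, 2.25 and 1.82 CPM. Those 3 groups overlapped each other, and ziram and rotenone lay just above the highest DMSO library. Methylmercury (0.740 to 1.46 CPM) and paraquat (0.529 to 1.29 CPM) overlapped DMSO. The log2 difference from DMSO was 3.10 (SE 0.30) in MPP, 2.31 (SE 0.30) in MS275, 0.81 (SE 0.31) in ziram and 0.69 (SE 0.33) in rotenone.

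The bases before the PEAR1 start, at chr1:156893468-156893717 on the plus strand, are shown for comparison with ELFN2, since both genes stood highest in MPP. Capitals mark a match to TGCNCNC (here TGCCCCC) and a GC box on the opposite strand, which overlap.
PEAR1: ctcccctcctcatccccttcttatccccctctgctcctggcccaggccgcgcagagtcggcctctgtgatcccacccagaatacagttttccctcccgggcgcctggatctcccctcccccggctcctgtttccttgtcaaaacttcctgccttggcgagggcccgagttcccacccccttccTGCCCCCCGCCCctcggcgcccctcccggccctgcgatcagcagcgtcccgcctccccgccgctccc
Of the letters searched, ELFN2 and PEAR1 shared the GC box, which 45% of all promoters held, and TGCNCNC, which 55.9% held.

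FAT1, the giant cadherin, lies on the minus strand at chr4:186587783-186726722 and was one of the more abundant of the 10 genes. DMSO gave 98.0, 83.7 and 97.8 CPM. MS275 gave 165, 144 and 192 CPM, and MPP 144, 178 and 168 CPM. MS275 and MPP overlapped each other and stood above all other groups. Rotenone gave 132, 124 and 138 CPM, and ziram 129, 128 and 116 CPM. They overlapped each other and lay between MPP and DMSO without touching either. 6-HD was the lowest group, with 81.0, 69.3 and 74.4 CPM and a log2 difference of -0.31 (95% interval -0.52 to -0.10). This difference was not called. The 6-HD libraries lay below all 3 of DMSO, in a comparison where 13% of all genes tested did not overlap. Paraquat (80.4 to 100.2 CPM) and methylmercury (85.7 to 88.7 CPM) overlapped DMSO. For FAT1 the log2 difference was 0.84 (SE 0.10) in MS275, 0.81 (SE 0.10) in MPP, 0.50 (SE 0.10) in rotenone and 0.42 (SE 0.10) in ziram.

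FAT1 has a pair of RefSeq starts, and the window of the outer one, at chr4:186726697-186726946 on the minus strand, is shown because it alone among the 16 windows held the full palindromic CRE. Capitals mark the CRE (TGACGTCA) and GC boxes.
FAT1: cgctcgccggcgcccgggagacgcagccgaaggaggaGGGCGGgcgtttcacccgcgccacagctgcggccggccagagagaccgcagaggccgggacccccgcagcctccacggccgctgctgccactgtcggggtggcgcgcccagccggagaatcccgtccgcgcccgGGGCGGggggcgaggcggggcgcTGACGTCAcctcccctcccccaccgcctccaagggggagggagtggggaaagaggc
The CRE lies 56 bases before the start, and 1.85% of all promoters held one.

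MARVELD1, the membrane protein at chr10:97713173-97718152 on the plus strand, was one of the genes that stood below DMSO. DMSO gave 10.8, 12.4 and 11.2 CPM. MS275 gave 4.03, 3.66 and 3.70 CPM, lower than any other library. MPP gave 6.27, 7.07 and 6.65 CPM, methylmercury 6.32, 5.38 and 7.63 CPM and rotenone 7.77, 5.56 and 9.43 CPM. These 3 groups overlapped each other and lay below all DMSO libraries. Ziram gave 12.7, 9.74 and 11.2 CPM and 6-HD 10.2, 9.65 and 12.4 CPM, both overlapping DMSO, while paraquat gave 9.26, 8.92 and 9.82 CPM, just below DMSO. MARVELD1 had a log2 difference of -1.60 (SE 0.18) in MS275, -0.82 (SE 0.17) in methylmercury, -0.79 (SE 0.17) in MPP and -0.59 (SE 0.17) in rotenone. The rotenone call was lost without any 1 of the DMSO libraries and without rotenone replicate 1 or 2, where the difference ran from -0.63 (without DMSO replicate 1) to -0.44 (without rotenone replicate 2).

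LIPG, the endothelial lipase at chr18:49560699-49599182 on the plus strand, had 7.97, 6.66 and 8.25 CPM in DMSO. In MS275 it had 34.3, 38.3 and 27.2 CPM, above every other library. Rotenone gave 11.8, 15.5 and 14.4 CPM, methylmercury 14.4, 13.1 and 12.1 CPM, and MPP 11.8, 12.7 and 9.39 CPM. Those 3 groups overlapped each other and lay above DMSO. 6-HD (7.18 to 12.0 CPM), ziram (7.78 to 10.7 CPM) and paraquat (7.28 to 8.13 CPM) overlapped DMSO. LIPG had a log2 difference of 2.13 (SE 0.17) in MS275, 0.85 (SE 0.18) in rotenone, 0.79 (SE 0.17) in methylmercury and 0.57 (SE 0.17) in MPP. LIPG was the only one of the 10 genes called higher in methylmercury. The MPP call was lost with scaling by library totals (0.48) and without DMSO replicate 1 (0.60), DMSO replicate 2 (0.48), MPP replicate 1 (0.54) or MPP replicate 2 (0.49).

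PRSS56, the secreted serine protease at chr2:232520463-232525716 on the plus strand, stood above DMSO at overlapping levels in 4 toxicants. DMSO gave 2.85, 4.52 and 3.87 CPM. Rotenone gave 8.66, 12.1 and 12.5 CPM, MPP 11.2, 9.48 and 7.39 CPM and ziram 9.64, 6.74 and 8.39 CPM. MS275 gave 9.51, 8.41 and 5.96 CPM. Each of the 4 groups overlapped the next in the order, and all 4 lay above DMSO. Paraquat (3.36 to 5.89 CPM), 6-HD (4.00 to 5.15 CPM) and methylmercury (1.75 to 3.89 CPM) overlapped DMSO. The log2 difference was 1.52 (SE 0.25) in rotenone, 1.301 (SE 0.25) in MPP, 1.11 (SE 0.25) in ziram and 1.08 (SE 0.25) in MS275.

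PRSS56 is also listed with a pair of starts, and the window of the inner one, at chr2:232520213-232520462 on the plus strand, is shown because it held the letters of an ATF4 element (TGATGNAA), found in 3.62% of all promoters. Capitals mark the ATF4 element 21 bases before the start, a TATA match (TATAAA) and a match to TGCNCNC.
PRSS56: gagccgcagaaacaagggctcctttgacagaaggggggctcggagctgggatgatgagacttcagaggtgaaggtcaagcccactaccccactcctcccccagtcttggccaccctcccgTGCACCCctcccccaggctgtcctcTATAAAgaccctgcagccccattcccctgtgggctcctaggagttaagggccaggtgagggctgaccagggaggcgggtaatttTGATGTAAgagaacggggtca
CREB5 was the other one of the 10 genes with a match to the ATF4 element.

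CNN2, the actin-binding calponin at chr19:1026581-1039068 on the plus strand, had 3.42, 4.52 and 3.70 CPM in DMSO. In MS275 it had 35.5, 34.1 and 27.7 CPM, far above every other library. Rotenone gave 9.51, 9.45 and 11.7 CPM, MPP 9.87, 9.91 and 8.60 CPM and ziram 9.05, 7.61 and 7.33 CPM. Those 3 groups overlapped in order and lay above DMSO. Methylmercury (3.50 to 4.62 CPM), 6-HD (1.44 to 5.49 CPM) and paraquat (2.59 to 4.56 CPM) overlapped DMSO. CNN2 had a log2 difference of 3.05 (SE 0.24) in MS275, 1.38 (SE 0.25) in rotenone, 1.28 (SE 0.24) in MPP and 1.03 (SE 0.24) in ziram. Of the endothelial and mural markers, PDGFRB, CDH5, VWF, PECAM1 and KDR also had higher means in MS275 than in DMSO, at the levels given above, while ACTA2 differed little.

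MTURN, the small protein linked to progenitor differentiation, lies on the plus strand at chr7:30134810-30162762 and stood highest in DMSO, with 165, 159 and 146 CPM. MS275 gave 95.5, 108 and 113 CPM, rotenone 113, 118 and 109 CPM, MPP 108, 115 and 120 CPM and ziram 109, 118 and 124 CPM. These 4 groups overlapped each other and lay below DMSO. Methylmercury (114.5 to 130.4 CPM) also lay below DMSO, while 6-HD (130.0 to 149.99 CPM) and paraquat (137 to 159 CPM) overlapped it. The log2 difference was -0.57 (SE 0.09) in MS275, -0.47 (SE 0.09) in rotenone, -0.46 (SE 0.09) in MPP and -0.42 (SE 0.09) in ziram. Scaling by library totals moved the MPP difference to -0.55. MTURN was below DMSO in all 7 toxicants by the fitted difference, as was MARVELD1, and ELFN2, LIPG and ZBTB7C were above DMSO in all 7.

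ZBTB7C, the BTB zinc finger factor at chr18:48026673-48410752 on the minus strand, had 6.83, 6.87 and 6.50 CPM in DMSO. In MS275 it had 26.2, 27.5 and 21.0 CPM, above every other library. Rotenone gave 12.7, 13.5 and 11.1 CPM and MPP 13.8, 12.3 and 10.9 CPM, which overlapped. Ziram (9.78 to 10.5 CPM), 6-HD (8.77 to 10.2 CPM) and methylmercury (7.99 to 10.2 CPM) overlapped each other and lay above DMSO, and paraquat (5.82 to 9.92 CPM) overlapped DMSO. ZBTB7C libraries therefore lay apart from DMSO in 6 of the 7 toxicants, the highest number among the 10 genes. The log2 difference was 1.90 (SE 0.16) in MS275, 0.89 (SE 0.17) in rotenone, 0.88 (SE 0.16) in MPP and 0.57 (SE 0.16) in ziram.

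CREB5, the basic leucine zipper factor at chr7:28299321-28825894 on the plus strand, stood highest in rotenone. Rotenone gave 71.2, 61.3 and 68.7 CPM, above MS275 with 45.4, 49.8 and 60.8 CPM and MPP with 35.5, 41.0 and 44.9 CPM. These 3 groups did not overlap each other, and each lay above DMSO at 21.8, 17.5 and 20.3 CPM. Paraquat (21.0 to 26.1 CPM), ziram (16.01 to 22.4 CPM) and 6-HD (13.4 to 19.1 CPM) overlapped DMSO, and methylmercury (15.2 to 16.99 CPM) lay just below it. The log2 difference was 1.76 (SE 0.14) in rotenone, 1.39 (SE 0.14) in MS275 and 1.03 (SE 0.14) in MPP. Ziram left CREB5 at -0.04 (95% interval -0.32 to 0.25), while it gave 1.38 for ELFN2 and 1.11 for PRSS56.

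The toxicants were then compared with each other directly, in contrasts that hold no DMSO library and were not used to choose the genes, although the toxicant libraries are the ones the choice rested on. MS275 and MPP were both given at 5 µM. Of the 10 genes, 6 differed between them by the edgeR test, where 50.8% of all genes tested did, and in the same 6 the libraries did not overlap, which held for 59.7% of all genes. LIPG was 2.94-fold higher in MS275 than in MPP (log2 difference 1.56, SE 0.16, edgeR adjusted p = 4.46e-09). CNN2 was 3.42-fold higher in MS275 (1.78, SE 0.22, edgeR adjusted p = 8.42e-08), and ZBTB7C was 2.02-fold higher (1.02, SE 0.15, edgeR adjusted p = 2.15e-06). In these 3 genes all 3 MS275 libraries lay above all 3 MPP libraries. MARVELD1 was lower in MS275 (log2 difference -0.81, SE 0.18, edgeR adjusted p = 0.000377), again with no overlap. PEAR1 was also lower in MS275 (-0.79, SE 0.26, edgeR adjusted p = 0.013), and CREB5 was higher (0.36, SE 0.13, edgeR adjusted p = 0.0254), both with no overlap. The PEAR1 call was lost without MS275 replicate 1 (edgeR adjusted p = 0.0704) or MPP replicate 1 (edgeR adjusted p = 0.0504). The CREB5 call was lost without MS275 replicate 3 (edgeR adjusted p = 0.176), MPP replicate 1 (edgeR adjusted p = 0.151) or MPP replicate 2 (edgeR adjusted p = 0.058). From DMSO, LIPG differed by 2.13 in MS275 and 0.57 in MPP, CNN2 by 3.05 and 1.28, and ZBTB7C by 1.90 and 0.88. Gaps between MS275 and MPP thus repeat in part the differences from DMSO that the choice of the genes used. Their p-values are no separate support.

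The other 4 genes did not pass the test between MS275 and MPP. The ELFN2 log2 difference was -0.44 (95% interval -0.88 to -0.01, edgeR adjusted p = 0.0844), and it passed with limma-voom (adjusted p = 0.0115), with the pair of groups fitted alone (edgeR adjusted p = 0.0445) and without MPP replicate 3 (edgeR adjusted p = 0.0369). FAT1 differed by 0.03 (95% interval -0.17 to 0.24), MTURN by -0.11 (95% interval -0.29 to 0.06) and PRSS56 by -0.22 (95% interval -0.71 to 0.26). These intervals bound the difference and do not show that the compounds act alike.

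MPP at 5 µM and rotenone at 1 µM, both inhibitors of complex I, differ in dose as well as in compound. Of the 10 genes 3 differed between them by the edgeR test, where 6.74% of all genes tested did. The genes were chosen for their differences from DMSO in these same toxicant libraries, so nothing is read from this count. For the same reason the p-values of the 10 genes in this comparison are no separate support. PEAR1 was 5.32-fold higher in MPP than in rotenone (log2 difference 2.41, SE 0.30, edgeR adjusted p = 3.55e-06), and ELFN2 was 3.82-fold higher (1.93, SE 0.24, edgeR adjusted p = 2.42e-06). PEAR1 was not called in rotenone, at 1.88 CPM against 1.14 CPM in DMSO. Its gap thus largely repeats the MPP difference from DMSO that the choice of the genes used, and is no separate support. CREB5 was lower in MPP (log2 difference -0.73, SE 0.13, edgeR adjusted p = 0.000879). In all 3 genes the libraries of the groups did not overlap. FAT1 stood at 0.31 (95% interval 0.10 to 0.52, edgeR adjusted p = 0.059) with libraries that did not overlap either, which made 4 of the 10 genes, where 21.1% of all genes tested did not overlap. It passed with no filter on low counts (edgeR adjusted p = 0.0362) and without MS275 replicate 2 (edgeR adjusted p = 0.0476), MS275 replicate 3 (edgeR adjusted p = 0.0347) or MPP replicate 1 (edgeR adjusted p = 0.0347). The other 6 genes had log2 differences from -0.28 (LIPG, 95% interval -0.63 to 0.07) to 0.01 (MTURN, 95% interval -0.17 to 0.19).

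Rotenone and 6-HD were both given at 1 µM. Their contrast called 6 of the 10 genes, where 5.71% of all genes were called, and MPP minus 6-HD called 8, where 13.7% were called. The 6-HD libraries stood near DMSO for most of the 10 genes, so these counts follow from the choice of the genes and nothing is read from them. In both contrasts FAT1 showed a wider gap than against DMSO, 0.81 (SE 0.10) for rotenone and 1.12 (SE 0.10) for MPP, since 6-HD had the lowest FAT1 level.

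**Figure D3:**
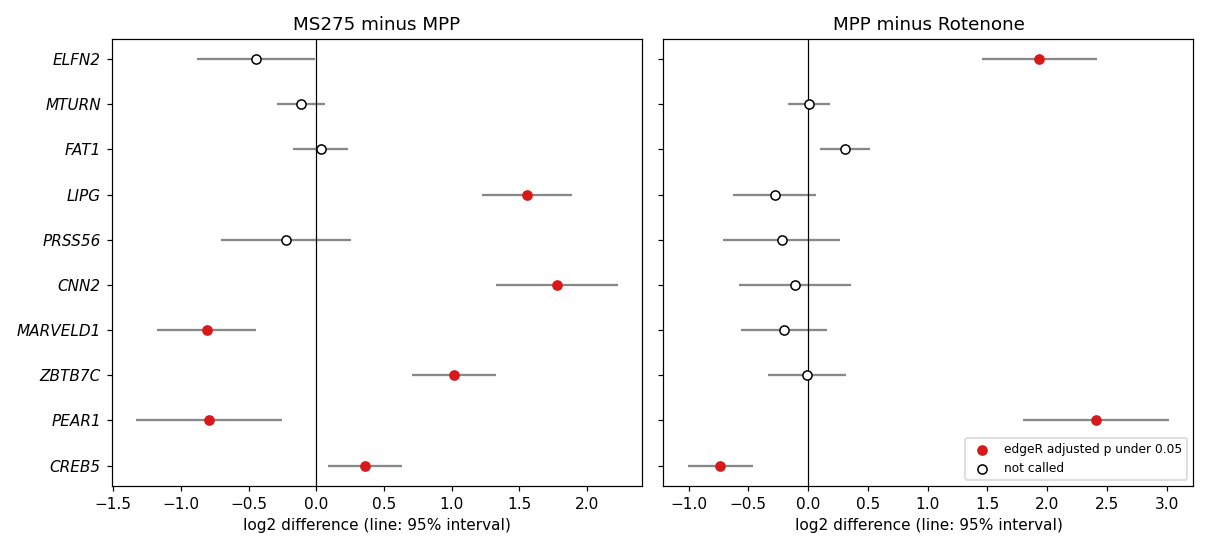
Log2 difference between toxicants for the 10 genes, MS275 minus MPP on the left and MPP minus rotenone on the right, with lines for the 95% interval; filled points passed the edgeR test at an adjusted p of 0.05. CNN2, LIPG and ZBTB7C were higher in MS275 than in MPP, PEAR1 was higher in MPP than in either MS275 or rotenone, and CREB5 was lower in MPP than in both.

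The spread between replicates differed among the genes. The coefficient of biological variation that edgeR estimated over all groups was 7.62% for MTURN and 8.88% for FAT1. It was 11.2% for CREB5, 12.1% for MARVELD1 and for ZBTB7C, and 13.1% for LIPG. It was 17.4% for CNN2, 18.4% for ELFN2, 19.2% for PRSS56 and 19.6% for PEAR1, against a median of 13.4% over all genes tested. Genes of like level had medians of 16.3% for the level of ELFN2, 15.9% for PRSS56, 13.8% for CNN2 and 21.7% for PEAR1. ELFN2, PRSS56 and CNN2 thus lay above the median for their level and PEAR1 below it.

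Whether the genes also moved together between replicate cultures was described by the deviations of each library from its group mean, which the choice of the genes did not use. Over the 45 pairs of genes and 24 libraries, Pearson's r of these deviations ran from -0.49 (MTURN with LIPG) to 0.60 (FAT1 with CREB5), with a median of 0.096, and 29 of the 45 values were above 0. ELFN2 gave 0.56 with PRSS56 and 0.56 with LIPG. Over the 24 libraries with the group means left in, the median over pairs was 0.60, a value that the choice of the genes fixed. The libraries share depth and composition, and with library totals in place of scaled totals the median was 0.085, with 26 values above 0.

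**Figure D4:**
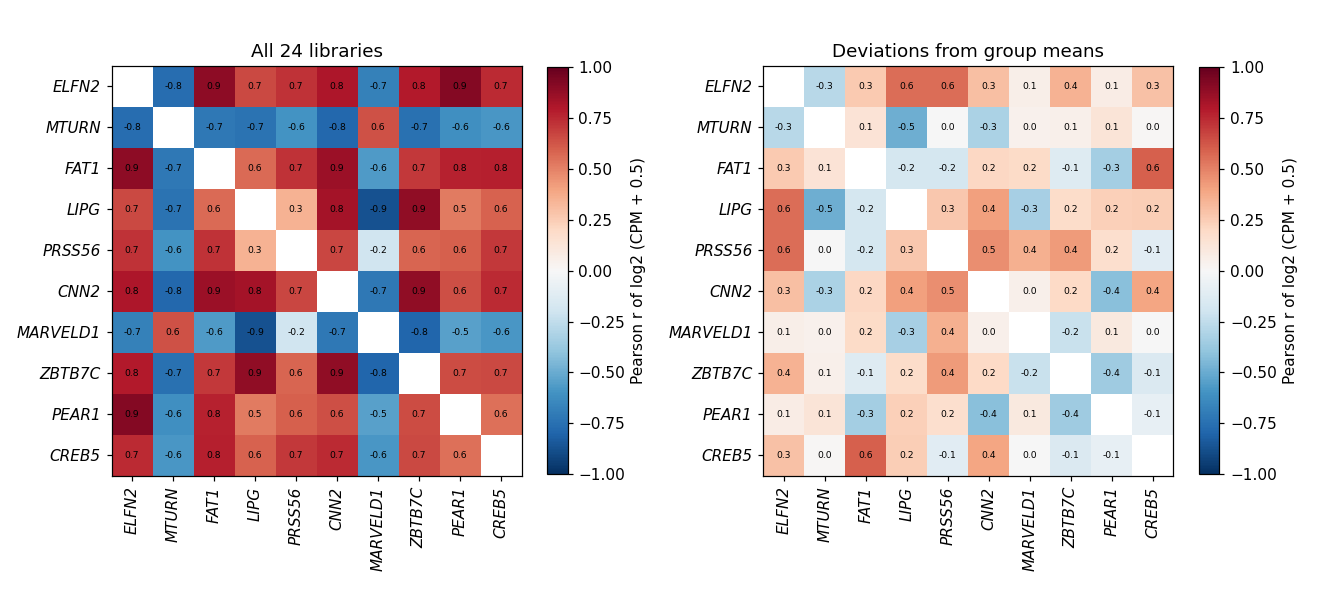
Pearson's r of log2 (CPM + 0.5) for the 45 pairs of genes over 24 libraries, with the group means left in (left) and removed (right). The strong values on the left, with opposite sign for MTURN and MARVELD1, mostly fall toward 0 on the right.

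Among 14494 genes with a mean of at least 1 CPM, those most like ELFN2 over the 24 libraries were WSCD1 (r = 0.94), TMEM189 (r = 0.90), TNFRSF19 (r = 0.90), KIAA1644 (r = 0.90) and DUSP5 (r = 0.89). Over the 8 group means in place of the libraries, 0 of these 5 stayed among the first 5, with ranks of 7, 28, 56, 80 and 86. WSCD1 stood at 64.4 CPM in DMSO, 136.2 in MS275, 122.6 in MPP and 94.1 in rotenone, a change of much smaller size than that of ELFN2. DUSP5, a phosphatase of nuclear ERK, stood at 9.75 CPM in DMSO, 30.6 in MS275, 23.01 in MPP and 12.7 in rotenone. The genes most opposite to ELFN2 were RBM12 (r = -0.94), SPRYD4 (r = -0.94), RAB9B (r = -0.93), TPM3P9 (r = -0.92) and ARFGAP2 (r = -0.91). RBM12, an RNA-binding protein, stood at 242 CPM in DMSO, 129 in MS275, 121 in MPP and 154 in rotenone. For the other genes the most alike were GEM for CNN2 (r = 0.95), NET1 for LIPG (r = 0.93), PTPN14 for ZBTB7C (r = 0.93), NUAK1 for FAT1 (r = 0.91), JUNB for MARVELD1 (r = 0.88), INSM1 for PRSS56 (r = 0.87) and VPS18 for MTURN (r = 0.82), with BDKRB2 for CREB5 (r = 0.95) and PNMA8A for PEAR1 (r = 0.89). These values describe the same 24 libraries and carry no p-value.

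Genes of the same families and pathways were then read, 101 in 9 lists, of which 84 passed the filter on low counts. Against DMSO, MS275 called 42 of the 84 by edgeR, 30 higher and 12 lower, which is 50% where 43.2% of all genes were called. The median log2 difference of the 84 genes was 0.46 in MS275 and that of all genes 0.04. MPP called 6, 1 higher and 5 lower, which is 7.14% where 10.8% of all genes were called. Rotenone called 5, 4 higher and 1 lower, which is 5.95% where 5.52% were called, and methylmercury called 1. Paraquat, ziram and 6-HD called 0 of the 84 by edgeR, DESeq2 and limma-voom, with 1, 6 and 3 genes at an unadjusted p under 0.05. The rotenone count fell to 2 without DMSO replicate 1 or rotenone replicate 3, to 1 without DMSO replicate 2 or 3 and to 3 without rotenone replicate 2, and it rose to 13 without rotenone replicate 1. The shares in MPP and rotenone lay near those of all genes.

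Of the partners of ELFN2 and other leucine-rich repeat synaptic proteins, 18 passed the filter and 12 were called in MS275, 9 higher and 3 lower, which is 66.7% where 43.2% of all genes were called. GRM4, a group III metabotropic glutamate receptor that ELFN2 can bind, rose from 34.6 ± 4.55 CPM (SD, n = 3) in DMSO to 73.9 ± 2.64 CPM in MS275 (log2 difference 1.09, SE 0.15, edgeR adjusted p = 6.01e-07). In MPP, where ELFN2 was highest, GRM4 stood at 31.9 ± 2.71 CPM and did not pass (edgeR adjusted p = 0.685). SLITRK5 and SLITRK1, which shape synapses and neurites, fell in MS275 by 0.82 and 0.78 on the log2 scale (edgeR adjusted p = 3.60e-07 and 6.18e-07). They also fell in MPP, by 0.44 and 0.36 (edgeR adjusted p = 0.00596 and 0.0233). The SLITRK1 call in MPP was lost without DMSO replicate 2, DMSO replicate 3 or any 1 of the MPP libraries, and the SLITRK5 call was lost without MPP replicate 2 (edgeR adjusted p = 0.0528).

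In the cadherin system of FAT1, 4 of 8 genes rose in MS275, where 43.2% of all genes were called, and 2 fell in MPP, where 10.8% were. FAT4, the cadherin of the same family that pairs with DCHS1, stood at 31.0 ± 2.67 CPM (SD, n = 3) in DMSO. It rose in MS275 to 57.9 ± 11.7 CPM (log2 difference 0.90, SE 0.15, edgeR adjusted p = 1.41e-05) and fell in MPP to 16.4 ± 2.96 CPM (-0.93, SE 0.16, edgeR adjusted p = 0.000125). FAT1 itself stood 0.81 above DMSO in MPP. The planar polarity cadherins CELSR2 and CELSR1 rose in MS275, by 0.85 and 2.02 (edgeR adjusted p = 2.33e-05 and 2.47e-05), and did not pass in MPP.

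Of 8 EGF-repeat and scavenger receptor genes related to PEAR1, 4 rose in MS275, which is 50% where 43.2% of all genes were called, among them MEGF11 by 2.51 (edgeR adjusted p = 2.59e-06) and STAB1 by 2.58 (edgeR adjusted p = 0.000321). In MPP, where PEAR1 had a log2 difference of 3.10, MEGF11 had one of 0.07 (95% interval -0.72 to 0.87). Of 7 lipases and lipase partners of LIPG, 2 rose in MS275, which is 28.6% where 43.2% of all genes were called. LMF1, which matures lipases in the endoplasmic reticulum, rose in MS275 by 0.82 (edgeR adjusted p = 0.00174) and in rotenone by 0.80 (edgeR adjusted p = 0.0219). The rotenone call of LMF1 was lost without any 1 of the DMSO libraries or without rotenone replicate 2, with edgeR adjusted p from 0.0554 to 0.108, and with the pair of groups fitted alone (edgeR adjusted p = 0.0773).

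Of 7 serine proteases related to PRSS56, 3 rose and 2 fell in MS275, which is 71.4% where 43.2% of all genes were called. HTRA3, a secreted protease, rose from 2.75 ± 0.206 CPM (SD, n = 3) to 14.4 ± 4.80 CPM in MS275 (log2 difference 2.38, SE 0.27, edgeR adjusted p = 1.83e-08), while in rotenone, where PRSS56 was highest, it stood at 1.33 ± 0.566 CPM (edgeR adjusted p = 0.0714). PRSS12, the synaptic protease neurotrypsin, rose in MS275 by 0.71 (edgeR adjusted p = 0.000446), and HTRA2, a mitochondrial protease, fell by 0.48 (edgeR adjusted p = 0.00203). The 4 relatives of CNN2 that passed the filter, CNN3, TAGLN, TAGLN2 and TAGLN3, are a calponin and the transgelins, which also bind actin, and in MS275 they had log2 differences of 0.03, 0.07, 0.19 and -0.01. None of these 4 passed the edgeR test. CNN3 stood at 298 ± 21.6 CPM (SD, n = 3) in DMSO and 304 ± 14.1 CPM in MS275, a log2 difference of 0.03 (95% interval -0.13 to 0.18), where CNN2 stood at 3.05.

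Of 11 MARVEL-domain and related proteins, 3 rose and 1 fell in MS275, or 36.4% where 43.2% of all genes were called. SYNGR2, a synaptogyrin outside neurons, rose by 1.76 (edgeR adjusted p = 2.46e-08), MAL by 0.73 (edgeR adjusted p = 8.38e-05) and CMTM7 by 0.48 (edgeR adjusted p = 0.00106), in the direction opposite to MARVELD1. Of 7 BTB zinc finger genes related to ZBTB7C, 1 rose and 2 fell in MS275, or 42.9%, near the share of all genes. PATZ1 fell from 156 ± 7.72 CPM (SD, n = 3) to 65.6 ± 5.59 CPM (log2 difference -1.25, SE 0.08, edgeR adjusted p = 1.20e-12). ZBTB7B fell by 0.66 (edgeR adjusted p = 0.000931), and BCL6, a repressor, rose by 1.20 (edgeR adjusted p = 0.00153).

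Among 14 relatives of CREB5, 4 rose and 4 fell in MS275, or 57.1% where 43.2% of all genes were called. CREM, whose gene gives activators and the repressor ICER, rose in MS275 by 1.29 (edgeR adjusted p = 8.48e-11) and in methylmercury by 0.56 (edgeR adjusted p = 0.012), where CREB5 had a log2 difference of -0.27. The methylmercury call of CREM was lost without DMSO replicate 1 (edgeR adjusted p = 0.145), DMSO replicate 2 (edgeR adjusted p = 0.110) or methylmercury replicate 2 (edgeR adjusted p = 0.191). CREM in rotenone had a log2 difference of 0.36 (SE 0.11, edgeR adjusted p = 0.0498), a call that was lost in most alternatives. CREBZF fell in MS275 by 0.57 (edgeR adjusted p = 5.79e-05) and rose in MPP by 0.63 (edgeR adjusted p = 0.000111). CRTC1, a coactivator of CREB, rose in MS275 by 0.94 (edgeR adjusted p = 0.000183).

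The nearest gene past the filter on each side of the 10 genes gave 20 neighbours, none of them among the 10. MS275 called 9 of the 20 by edgeR, 8 higher and 1 lower, near the share of all genes called (43.2%). Of the 9, 7 had the sign of the gene they adjoin. By their choice 8 of the 10 genes were higher in MS275, and most called neighbours were higher too, so nothing is read from this match. MPP called 2, rotenone 1, and the other toxicants 0 by edgeR, DESeq2 and limma-voom, with at most 2 of the 20 at an unadjusted p under 0.05. The MS275 count fell to 5 without DMSO replicate 3 or MS275 replicate 2. The MPP count fell to 1 under most single-library omissions, and the rotenone count was 0 without any 1 of the DMSO libraries or without rotenone replicate 2 or 3.

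MFNG, a glycosyltransferase of Notch lying 41592 bases from ELFN2, was chosen after its values were seen, as it was not called. It stood at 183.1 ± 3.44 CPM (SD, n = 3) in DMSO and 171 ± 14.3 CPM in MPP, a log2 difference of -0.10 (SE 0.10, edgeR adjusted p = 0.625). In MS275 MFNG stood at 174 ± 11.7 CPM (edgeR adjusted p = 0.598), and in rotenone at 230.0 ± 23.3 CPM (log2 difference 0.33, edgeR adjusted p = 0.0506). CYTH4, 52614 bases to the other side, was called in MS275 (edgeR adjusted p = 0.0121) at a level under 1 CPM in all groups, 0.493 ± 0.127 CPM (SD, n = 3) against 0.0135 ± 0.0233 CPM in DMSO. The CYTH4 call was lost without DMSO replicate 3 (edgeR adjusted p = 0.0815). CHRND, a nicotinic receptor subunit that starts 276 bases beyond PRSS56, rose in MS275 from 8.47 ± 0.673 CPM (SD, n = 3) to 14.04 ± 1.24 CPM (edgeR adjusted p = 0.00353). In rotenone, where PRSS56 was highest, CHRND stood at 9.53 ± 2.39 CPM (edgeR adjusted p = 0.778).

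ABCA7, a lipid transporter 1032 bases beyond CNN2, rose in MS275 by 0.49 on the log2 scale (edgeR adjusted p = 0.012), and TMEM259 on the other side rose by 0.36 (edgeR adjusted p = 0.0157). The ABCA7 call was lost without DMSO replicate 2 or 3 or MS275 replicate 1 (edgeR adjusted p from 0.0533 to 0.0898), and the TMEM259 call without DMSO replicate 1 or MS275 replicate 1 or 2 (edgeR adjusted p from 0.0515 to 0.0912). TRIL, 127463 bases from CREB5, rose in MS275 from 4.07 ± 0.939 CPM (SD, n = 3) to 14.7 ± 0.249 CPM. ARHGEF11, 18405 bases from PEAR1, fell in MS275 by 0.72 (edgeR adjusted p = 3.64e-07), against the direction of PEAR1, and was called in MPP (log2 difference 0.28, edgeR adjusted p = 0.0473). The MPP call was lost with RLE factors (edgeR adjusted p = 0.0564), library totals (0.19, edgeR adjusted p = 0.232), no filter (edgeR adjusted p = 0.172), the replicate block (edgeR adjusted p = 0.0640) and without any 1 of the DMSO libraries, MPP replicate 1 or 2 or several libraries of other groups. CYP4V2, the neighbour of FAT1 at 374326 bases, fell in MPP by 0.71 (edgeR adjusted p = 0.00233), against the direction of FAT1. ZNRF2, 121544 bases from MTURN, fell in rotenone by 0.47 (edgeR adjusted p = 0.0368), in the direction of MTURN. The ZNRF2 call was lost without any 1 of the DMSO libraries, without rotenone replicate 2 or 3, with limma-voom, with no filter and with the groups fitted alone (adjusted p from 0.0526 to 0.149).

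The other neighbours called in MS275 were ECEL1, AVPI1 and CTIF. ECEL1, a metalloprotease 32634 bases before PRSS56, rose by 0.43 (edgeR adjusted p = 0.00921), a call lost without MS275 replicate 1 or 2 (edgeR adjusted p = 0.0502 and 0.0670). CTIF, 128293 bases from ZBTB7C, rose by 0.29 (edgeR adjusted p = 0.0176), a call lost without DMSO replicate 1 or 3 or MS275 replicate 2 (edgeR adjusted p from 0.0534 to 0.0808). AVPI1, 25849 bases from MARVELD1, rose by 0.88 (edgeR adjusted p = 0.0314), against the direction of MARVELD1, and the call was lost with no filter and without DMSO replicate 2 or 3 or MS275 replicate 2 or 3 (edgeR adjusted p from 0.0748 to 0.115).

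**Figure D5:**
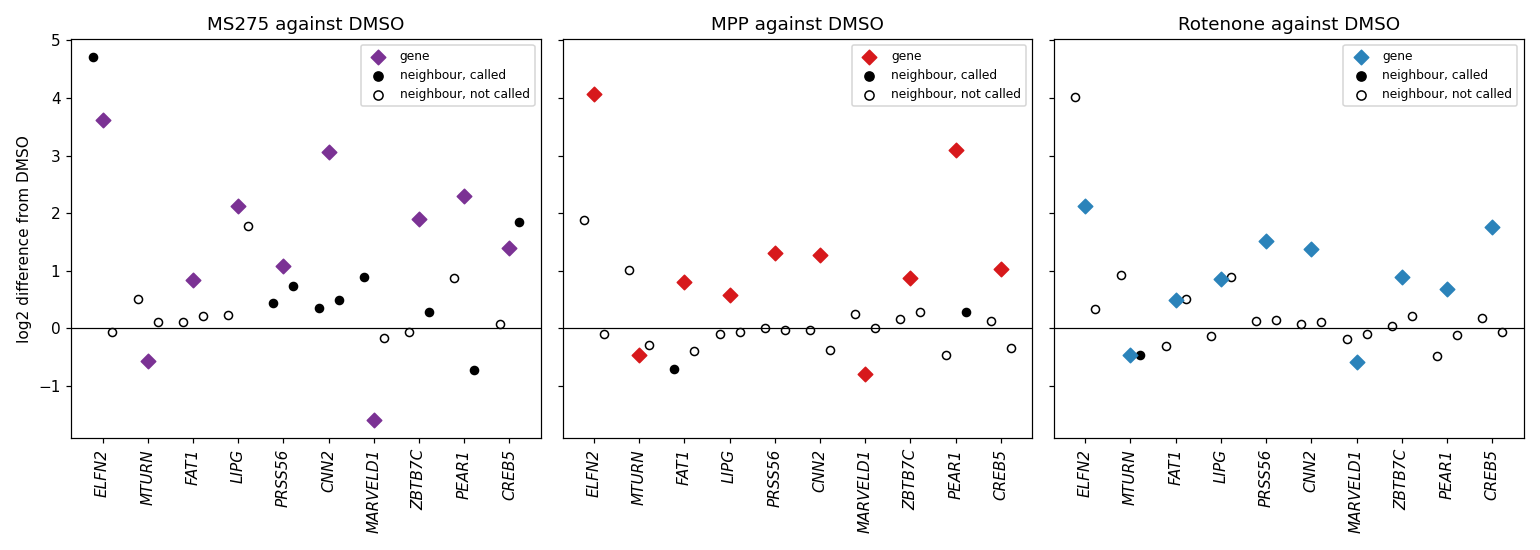
Log2 difference from DMSO of the 10 genes (diamonds) and of their nearest neighbours on each side (circles, filled where called by edgeR) in MS275, MPP and rotenone. In MPP 2 and in rotenone 1 of the 20 neighbours were called, and the ELFN2 neighbour far above 0, CYTH4, had a level under 1 CPM.

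All 10 genes matched the RefSeq promoter table (GRCh38.p14), with 16 windows of 250 bases before to 50 bases after a start. A GC box (GGGCGG) lay in 8 of the 16 windows, where 45% of all 35116 promoters held one, and the CRE core (TGACG) in 5 of the 16, in ELFN2, FAT1, LIPG, PRSS56 and CNN2, where 24.6% did. An AP-1 element (TGANTCA) lay in windows of ZBTB7C and CREB5 (7.71% of all promoters), and a TATA match (TATAAA) in windows of PRSS56 and CREB5 (11.5%). TGCNCNC, the loose form of the metal response element, lay in 11 of the 16 windows (55.9% of all promoters). The antioxidant element (TGACNNNGC), the E-box (CACGTG), the hypoxia element (ACGTG) and the heat shock pair (GAANNTTC) had 0 matches, where 13.3%, 7.26%, 21.4% and 6.77% of all promoters held them. Both strands were searched, CRE matches include the CRE core, and a match or its absence in these letters says nothing of binding.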

How the data were processed

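RNA of 24 LUHMES cultures, 3 in each of 8 groups, was selected for polyA, depleted of ribosomal RNA and sequenced, per the labels' protocols. The authors deposited raw read counts per gene, made with STAR and HTSeq on GRCh38, per the submitters' processing notes; no source used here gives their versions, the annotation release or the strand setting. The deposited normalized table holds a signal that equals the counts divided by 1 factor per library (100% of values came back whole within a tolerance of 0.01), so only the counts were tested. The 266 rows without a gene name, with 0.00492% of the counts, were kept for the filter, totals and tests. They were left out of the search for the genes most alike.

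Gene names, positions and exon lengths were taken from GENCODE 29, which matched 57447 of 58051 gene identifiers. The 10 genes and the lists of related genes, markers and motifs were chosen with earlier results of these data known. Low counts were filtered with filterByExpr, TMM scaling was used, and 1 quasi-likelihood model of 8 group means was fitted over all 24 libraries (edgeR 4.0.16, R 4.3.3, 16 residual degrees of freedom). P-values were adjusted by Benjamini-Hochberg over 18852 genes per contrast, at a threshold of 0.05. Standard errors come from the log2 difference and its F statistic, and intervals are 95%. CPM used TMM-scaled totals. The fit was tested on simulated data first.

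Of the related genes, up to 3 per list with the smallest adjusted p and a mean of at least 1 CPM are named, all members of lists of 5 or fewer, the called neighbours, and the 5 genes most and least like ELFN2. A related gene that this rule names is not reported here. The alternatives were RLE factors, library totals, no filter, DESeq2 1.42.0, limma-voom (limma 3.58.1), the groups of a contrast fitted alone, a replicate block and leaving out each library. The main fit treated the libraries as unpaired. Correlations of same-numbered deviations ran from -0.353 to 0.347. They were not compared with those of other numbers, so they cannot show whether replicate numbers pair the cultures. The labels call the triplicates biological samples of 1 cell line, so p-values measure the spread between these cultures. No pair of replicates agreed within sampling noise (chi-square per gene 4.19 to 27.7).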

Additional observations from a re-analysis of the deposited data

How the results depend on the processing

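Of 2170 log2 differences of the 10 genes from DMSO under the alternatives, 2162 moved by less than the spread between replicates and 8 moved further. Most alternatives left out 1 library, often of a group outside the comparison. Such an omission can hardly move a difference by more than that spread. The count was thus largely fixed in advance and does not show that the differences are stable. Among the differences called in the main fit 0 changed sign, and sign changes of differences not called were not counted. Those 8 were MTURN (-0.55) and MARVELD1 (-0.88) in MPP with library totals, ELFN2 without DMSO replicate 3 in MS275 (3.91), paraquat (0.54), rotenone (2.41) and methylmercury (0.86), ELFN2 in 6-HD without 6-HD replicate 2 (0.19), and PEAR1 in paraquat without paraquat replicate 2 (-0.56). Of 1890 values with a test, 1782 kept direction and call, 87 lost and 7 gained the call, and 14 reversed. The reversed values lay near 0. For MPP minus rotenone MTURN gave -0.0106 with RLE and with DESeq2, -0.0688 with library totals and -0.0113 with the groups fitted alone, and ZBTB7C gave 0.00623 with no filter and 0.000215 with limma-voom. Leaving out 1 library gave from -0.0222 to 0.0510 for MTURN, -0.164 to 0.00431 for CNN2 and -0.0945 to 0.0717 for ZBTB7C in that contrast, and -0.0802 to 0.123 for FAT1 in MS275 minus MPP.

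Counts of the 10 genes called moved in methylmercury, to 1 with limma-voom and from 0 to 3 without 1 library, and in ziram, from 0 to 5 without 1 library. Related genes called were 16 in MPP, 2 in ziram and 0 in rotenone with the groups fitted alone, 8 in rotenone with DESeq2 and 2 in methylmercury with no filter. Without 1 library they ran from 1 to 13 in rotenone and from 0 to 1 in methylmercury. Neighbours called were 1 in MPP with RLE, library totals or no filter, and in rotenone 2 with RLE or DESeq2 and 0 with limma-voom or the groups fitted alone. With no filter 1 neighbour was called in methylmercury. Without 1 library they ran from 5 to 11 in MS275, from 1 to 3 in MPP and from 0 to 2 in rotenone. With the replicate block, neighbours called in MPP fell to 1, and the ziram call of FAT1 (log2 difference 0.42) and the rotenone call of CREM (edgeR adjusted p = 0.0697) were lost. The cause of these changes was not tested. Low counts limit ELFN2 and PEAR1 in DMSO and the unfiltered ELFN2 entry, and 3 libraries per group limit every comparison.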
